A study of Mus musculus with 3 samples.

Results

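In the BM of LECT2-treated mice, 100 genes were chosen because their RNA was lower after 3 days of treatment than before it and higher again after 5 days. The dip of a gene is the smaller of 2 log2 ratios, that of 0 days to 3 days and that of 5 days to 3 days, both of RPKM (reads scaled by gene length and by the total reads of the library) plus 0.1. Of the 17559 rows in the tables, 10285 genes had at least 50 reads at 0 and at 5 days, and the 100 with the largest dip were kept. Of these, 7 had a dip over 1, which is a level at least 2-fold lower at 3 days than at both other times and is met by 0.0681% of the 10285 genes. They were Pf4, Klra13-ps, Rpp40, Ppbp, Alox12, Ccdc135 and Rps4y2. The opposite shape was met by 12 genes, which were at least 2-fold higher at 3 days than at both other times. The genes were chosen by these RPKM values, so their dips are a description.

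The cells were flushed from the femur, tibia, pelvis and humerus of C57BL/6 mice aged 6 to 8 weeks. LECT2, a secreted protein made mainly by the liver, was given under the skin once a day at 300 μg/kg for 3 or 5 days, and the 0-day mice had none. The protein was recombinant mouse LECT2 made in Chinese hamster ovary cells. Each time point was 1 poly(A)-enriched RNA-seq library, and how many mice it held is not given in the sources used here. With single libraries nothing could be checked against replicates, so no p-value is given, and each 95% interval (exact, Clopper-Pearson, of the ratio of 2 counts) covers counting error only. In total, 15523952 reads fell on genes in the 0-day library, 15146983 in the 3-day library and 15514673 in the 5-day library. Late neutrophil markers summed to 150538, 116587 and 41622 RPKM at the successive times, a main cell type whose share of the RNA was lowest when the 100 genes were higher again. Its part in their return was not tested. Early B cell markers summed to 1899 RPKM or more in each library, and 21 measured skeletal muscle markers summed to 47.3 RPKM or less.

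BM holds the whole range of blood-forming cells, together with megakaryocytes, the large cells that shed platelets, and a smaller population of T and NK (natural killer) cells. Platelets carry chemokines such as platelet factor 4 in granules and stick to vessel walls through a receptor complex that includes glycoprotein IX. NK and cytotoxic T cells kill targets with granule proteins and read their targets through receptor families, among them the Ly49 receptors encoded by the Klra genes.

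The promoters of 4 genes are shown as examples, 3 from the platelet group, which held 3 of the 7 dips over 1, and 1 from the T and NK cell group, which was the largest with a shared role. Pf4 and Ppbp are the neighbouring platelet chemokine genes with dips over 1, Gp9 is a platelet receptor gene, and Nkg7 is the most abundant T and NK cell gene among them. Each run is the 250 bases before the RefSeq start in GRCm38.p6, on the plus strand, and capitals mark the CCAAT box, the TATA box with letters TATAAA, or the PU.1 letters GAGGAAG, on either strand. They lie at chr5:90772185-90772434 (Pf4), chr5:90768268-90768517 (Ppbp), chr6:87777820-87778069 (Gp9) and chr7:43436888-43437137 (Nkg7).
Pf4: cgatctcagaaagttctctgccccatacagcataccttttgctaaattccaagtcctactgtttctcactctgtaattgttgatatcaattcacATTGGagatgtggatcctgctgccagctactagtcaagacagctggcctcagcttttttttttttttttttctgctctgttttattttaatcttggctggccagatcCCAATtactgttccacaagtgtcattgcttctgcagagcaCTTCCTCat
Ppbp: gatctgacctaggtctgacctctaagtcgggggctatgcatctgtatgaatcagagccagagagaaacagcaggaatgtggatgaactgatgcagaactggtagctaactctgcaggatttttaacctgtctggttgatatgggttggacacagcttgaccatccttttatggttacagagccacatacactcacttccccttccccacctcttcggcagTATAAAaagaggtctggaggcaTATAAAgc
Gp9: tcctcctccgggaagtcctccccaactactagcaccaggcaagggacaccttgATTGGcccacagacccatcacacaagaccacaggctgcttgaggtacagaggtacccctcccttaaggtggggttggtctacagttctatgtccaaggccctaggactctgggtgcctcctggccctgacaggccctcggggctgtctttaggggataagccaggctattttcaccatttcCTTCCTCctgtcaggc
Nkg7: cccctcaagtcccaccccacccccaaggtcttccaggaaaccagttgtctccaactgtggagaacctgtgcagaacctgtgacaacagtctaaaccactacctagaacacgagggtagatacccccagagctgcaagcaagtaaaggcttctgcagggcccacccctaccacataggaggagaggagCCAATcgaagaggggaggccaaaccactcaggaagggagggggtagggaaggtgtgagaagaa

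The promoters of Pf4 and Gp9 both held CCAAT and GAGGAAG, read on the reverse strand as CTTCCTC. That of Ppbp held TATAAA at positions -30 and -8 from the start, and that of Nkg7 held CCAAT at -63. In Pf4 a further AGATAA, the letters bound by GATA factors, stood at position 37 after the start, outside the bases shown. RefSeq promoters, from 250 bases before to 50 after the start, were matched for 72 of the 100 genes and 8277 of the 10285. CCAAT was found on either strand in 43.1% of the 72 promoters and 39.6% of the 8277. TATAAA was in 11.1% against 6.78%, AGATAA in 6.94% against 6.15%, and GAGGAAG, letters bound by PU.1, in 11.1% against 13.8%. The GC box GGGCGG was in 51.4% against 65.6%, the ETS letters CCGGAAG in 12.5% against 20.2%, the E-box CACGTG in 15.3% against 10.8%, and the RUNX letters TGTGGTT in 6.94% against 3.75%. TGACTCA was in 2.78% against 3.46%, TGACGTC in 5.56% against 5.94% and GCGCATG in 2.78% against 7.53%. GAGGAAG and CCGGAAG end in the same letters but cannot be the same match. The median GC content was 57.7% for the 72 promoters and 61.0% for the 8277. These are matches of letters, and no binding was measured.

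The dips of the 100 genes ran from 0.58 to 1.48, with a median of 0.69. Their median log2 ratio of 0 to 3 days was 0.80, where that of all 10285 genes was -0.10, and their median ratio of 5 to 3 days was 0.74 against 0.25. At least 2-fold lower at 3 days than at 0 days were 23 of the 100 and 1.05% of all genes. At least 2-fold higher at 5 days than at 3 days were 13 of the 100 and 1.18% of all genes. Both count ratios had intervals above 0 in all 100 genes and in 12.6% of all genes. A dip over 0, which is a level lower at 3 days than at both other times, was met by 29.6% of all genes. Since these values chose the genes, nothing is read from these counts.

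**Figure D1:**
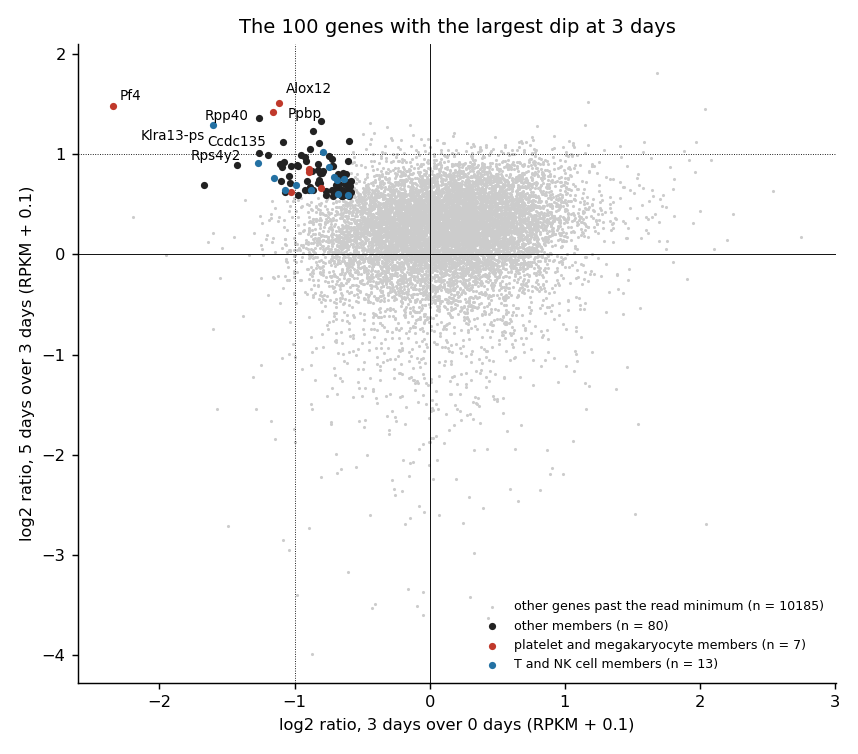
Log2 ratio of 3 to 0 days (x axis) against log2 ratio of 5 to 3 days (y axis), both of RPKM + 0.1, for the 10285 genes with at least 50 reads at 0 and 5 days. The 100 chosen genes (black, red for 7 platelet and megakaryocyte genes, blue for 13 T and NK cell genes) fill the upper left corner by choice, and the 7 labelled genes lie past the dotted 2-fold lines on both axes.

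The edge of the choice was narrow. The last genes inside were Galnt12, Cd34 and Prps1, each with a dip of 0.58, and the first genes outside were Nudcd2, H2afv and Klra7, also with dips of 0.58. Prps1, the last inside, was at 25.4, 16.98 and 28.3 RPKM at 0, 3 and 5 days. Nudcd2, the first outside, was at 17.7, 11.6 and 17.4 RPKM. Genes on both sides of the edge had the same shape, and their dips do not differ at 2 decimals.

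The level at 5 days against 0 days is the difference of the 2 ratios that the rule ranked, and so is a description too. None of the 100 genes was 2-fold higher at 5 than at 0 days, where 14.3% of all genes were, and none was 2-fold lower, where 3.77% were. Nothing is read from these counts, since a rule on the smaller of the 2 ratios favours such genes. Their median log2 ratio of 5 to 0 days was -0.02, that of all genes was 0.33, and 44 of the 100 were higher at 5 days. The count interval of that ratio spanned 0 for 85 genes, lay above 0 for 4 (Slc15a2, Klc1, Nlgn2 and Prps1) and below 0 for 11. With edgeR's TMM scaling, which moved the median log2 ratio of 5 to 3 days over all genes from 0.25 to 0.03, the median ratio of 5 to 0 days of these 100 genes was -0.33 and 6 of them were higher at 5 days.

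Platelet and megakaryocyte genes held 3 of the 7 dips over 1. Pf4, platelet factor 4, was at 11.3, 2.15 and 6.18 RPKM in the 0-, 3- and 5-day libraries, from 108, 20 and 59 reads. The 3-day level was 19.0% of that at 0 days and 34.7% of that at 5 days. The log2 ratio of 0 to 3 days was 2.34 (95% interval 1.70 to 3.16) and that of 5 to 3 days 1.48 (0.77 to 2.34). Pf4 was lowest at 3 days and had not returned by 5 days, when its log2 ratio to 0 days was -0.86 (-1.35 to -0.40).

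Ppbp, which encodes the other main platelet chemokine, is the next gene on chromosome 5, with 0 protein-coding starts between it and Pf4. It was at 9.31, 4.12 and 11.2 RPKM, with a log2 ratio of 1.16 (0.76 to 1.61) for 0 to 3 days and 1.42 (1.04 to 1.86) for 5 to 3 days. Unlike for Pf4, the interval of its 5 to 0 day ratio spanned 0. Alox12, the platelet lipoxygenase that makes 12-HETE, was at 1.55, 0.662 and 2.07 RPKM from 72, 30 and 96 reads. Its ratios were 1.11 (0.59 to 1.89) and 1.51 (1.04 to 2.29), so it too was lowest at 3 days.

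The other platelet genes had smaller dips. F2r, the thrombin receptor, was at 4.30, 2.26 and 4.17 RPKM, and Gp9 at 4.77, 2.52 and 4.53 RPKM from 60, 31 and 57 reads. Nrgn, a calmodulin-binding protein whose RNA is abundant in platelets, was at 25.4, 12.4 and 19.2 RPKM. It returned in part, with ratios of 1.03 (0.81 to 1.26) and 0.63 (0.39 to 0.87). Alox12 and F2r were grouped here after the 100 genes were seen, and the other 5 are from a list of 17 markers.

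Of the 10 genes on that list with enough reads, 5 were among the 100, which are 0.972% of all genes, and 8 had a dip over 0, where 29.6% of all genes did. With TMM scaling or with the length trend removed, 3 were among the 100 largest dips. The median log2 ratio of the 10 genes was -0.58 for 3 to 0 days and 0.73 for 5 to 3 days. Itga2b, an integrin of platelets, was at 10.8, 8.34 and 11.2 RPKM, and Vwf at 0.481, 0.381 and 0.861 RPKM. The exceptions were Itgb3, at 10.2, 12.4 and 8.31 RPKM and also used by osteoclasts, and Gp1bb, at 2.35, 2.37 and 2.26 RPKM. The shape of the chemokine genes was thus not that of every gene on the list, and Itgb3 was highest at 3 days.

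**Figure D2:**
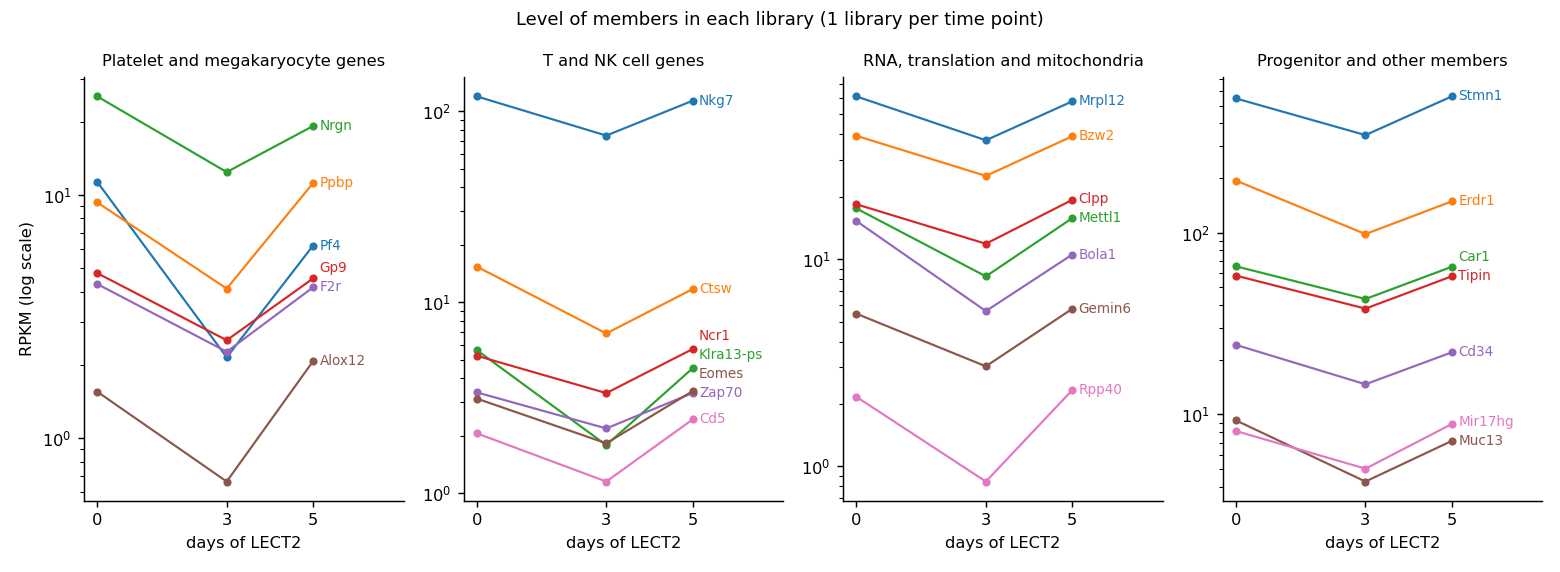
RPKM on a log scale (y axis) against days of LECT2 (x axis) for examples of the 100 genes in 4 panels by role, with 1 library per time point and so no error bars. Every line is lowest at 3 days by choice, with the steepest line that of Pf4, at 11.3 and 2.15 RPKM at 0 and 3 days, and the highest that of Stmn1, at 547, 344 and 561 RPKM.

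T and NK cell genes made up 13 of the 100, a group drawn partly after the genes were seen. Nkg7, a granule membrane protein of killer cells, was the most abundant, at 120, 74.7 and 114 RPKM from 1513, 920 and 1435 reads. Its ratios were 0.68 (0.56 to 0.80) and 0.61 (0.49 to 0.73), so that its counting error was small. Ctsw, the protease cathepsin W of cytotoxic cells, was at 15.4, 6.86 and 11.7 RPKM. Eomes, a transcription factor of NK cells, was at 3.13, 1.82 and 3.42 RPKM, and Ncr1, the activating receptor NKp46, at 5.24, 3.34 and 5.68 RPKM. These NK cell genes were each lowest at 3 days, and Ctsw alone of the 4 had an interval of its 5 to 0 day ratio below 0.

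The T cell genes among the 100 encode parts of antigen receptor signalling. Cd247, the zeta chain of the receptor, was at 2.44, 1.45 and 2.55 RPKM, and Zap70, the kinase that binds it, at 3.37, 2.18 and 3.34 RPKM. Cd5 and Cd6, related surface receptors that dampen this signal, are neighbours on chromosome 19 with 0 protein-coding starts between them. They were at 2.05, 1.15 and 2.43 RPKM and at 1.85, 0.957 and 1.55 RPKM. Skap1, an adaptor downstream of the receptor, was at 4.15, 1.66 and 3.21 RPKM, with a ratio of 1.27 (0.86 to 1.80) for 0 to 3 days. All 5 were at low levels, from 36 to 72 reads at 3 days.

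Serpinb9, an inhibitor of granzyme B, was at 5.78, 2.86 and 4.69 RPKM, and Fasl, the death ligand of cytotoxic cells, at 2.36, 1.43 and 2.46 RPKM. The Ly49 genes were mixed. Klra13-ps, a transcribed pseudogene, had 71, 22 and 57 reads, or 5.61, 1.78 and 4.51 RPKM, and the second largest dip of all, 1.29. Klra8, with 3 protein-coding starts between it and Klra13-ps on chromosome 6, had 84, 38 and 62 reads. Klra7, just outside the 100, had 85, 55 and 100 reads. Of the 19 Klra rows only 5 had enough reads, and of these 3 had a dip over 0, where 29.6% of all genes did. Klra17 was at 18.8, 14.5 and 6.04 RPKM, and Klra2 was highest at 3 days, at 12.3, 18.3 and 11.4 RPKM. Since these genes are near copies of each other, reads may be split between them, and values of single Klra genes are uncertain.

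Of 19 T cell markers with enough reads, 4 were among the 100 (0.972% of all genes) and 16 had a dip over 0 (29.6% of all genes). Only 2 were among the 100 largest dips with TMM scaling, and 2 with the length trend removed. Their medians were -0.78 for 3 to 0 days and 0.42 for 5 to 3 days. The level of all 20 markers summed to 172, 104 and 138 RPKM. The return was uneven. Cd3d, a chain of the CD3 complex, was lowest at 5 days, at 10.5, 3.97 and 2.57 RPKM, and Cd28, the costimulatory receptor, was still low at 5 days, at 5.01, 1.77 and 2.02 RPKM. Tcf7, a T cell transcription factor, was at 3.22, 3.66 and 7.34 RPKM. With TMM scaling 12 of the 19 had a dip over 0, against 23.7% of all genes. The median of the 19 for 5 to 3 days was then 0.20, against 0.03 for all genes. With the length trend removed it was 0.18, against -0.0004 for all genes. Without either change it was 0.42, against 0.25 for all genes.

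Of 14 NK and cytotoxic markers, 4 were among the 100 (0.972% of all genes) and 12 had a dip over 0 (29.6% of all genes), with medians of -0.68 and 0.54. The 4 became 2 with TMM scaling and with the length trend removed. The median for 5 to 3 days was 0.31 with TMM scaling, against 0.03 for all genes. That for 3 to 0 days was -0.45 with the length trend removed, against 0.003 for all genes. The level of all 16 summed to 339, 188 and 275 RPKM. Gzma, a granule protease, was at 50.7, 22.5 and 32.6 RPKM, and the chemokine gene Ccl5 at 62.5, 31.0 and 45.1 RPKM, both with returns too small for the 100. Prf1, which encodes perforin, was at 2.63, 2.67 and 2.92 RPKM and Tbx21 at 1.64, 1.73 and 2.45 RPKM, and neither had a dip over 0. In bulk marrow, fewer cells of a type and less RNA per cell cannot be told apart.

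**Figure D3:**
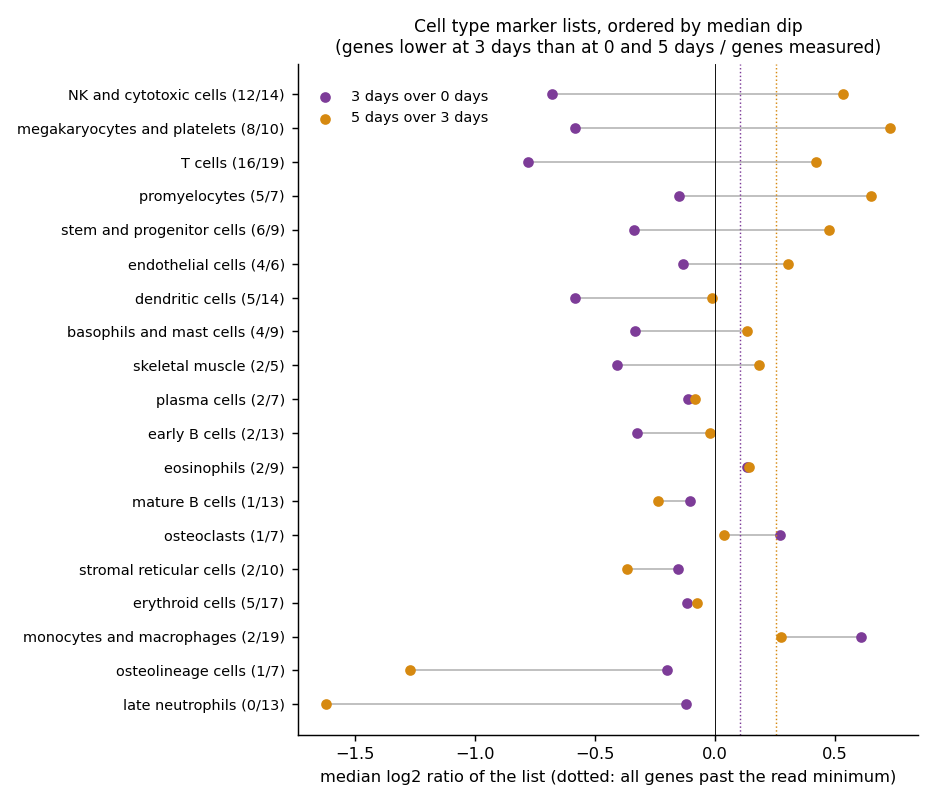
Median log2 ratio of 3 to 0 days (purple) and of 5 to 3 days (orange) for the 19 cell type marker lists with at least 5 genes past the read minimum, ordered by the median dip, with dotted lines at the medians of all genes. The NK, platelet and T cell lists stand at the top, with purple medians from -0.78 to -0.58 and orange medians from 0.42 to 0.73.

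Of 40 marker and pathway lists 7 held any of the 100 genes, and 83 of the 100 were on no list. Since the 100 are 0.972% of all genes, a list of this size without a member is no result. Among stem and progenitor markers 2 of 9 were members, among them Cd34, a surface protein of progenitors and vessels at 24.1, 14.6 and 21.9 RPKM. On that list 6 of 9 had a dip over 0, where 29.6% of all genes did, and this was 4 of 9 with TMM scaling and 5 of 9 with the length trend removed. Meis1, a stem cell transcription factor outside the 100, was at 2.98, 2.11 and 2.98 RPKM, whereas Myct1 had no return, at 4.87, 1.18 and 1.18 RPKM. Kit, the stem cell factor receptor, was at 8.19, 10.01 and 16.1 RPKM and Cd48 at 53.6, 58.9 and 79.6 RPKM, both lowest at 0 days. Among erythroid markers 1 of 17 was a member, the early carbonic anhydrase gene Car1, at 65.2, 43.1 and 64.8 RPKM. The haemoglobin gene Hba-a1 did not return and was at 2253, 1591 and 596 RPKM. Among endothelial markers 1 of 6 was a member, the junction cadherin gene Cdh5, at 2.51, 1.57 and 2.40 RPKM. With TMM scaling or with the length trend removed, these 3 lists each had 0 genes among the 100 largest dips. Muc13, a transmembrane mucin on no list, was at 9.26, 4.27 and 7.14 RPKM.

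Ribosomal protein genes were lower at 3 than at 0 days in 35 of 35 cases, where 41.7% of all genes were, and had a dip over 0 in 29 of 35, where 29.6% of all genes did. Their median log2 ratio was -0.84 for 3 to 0 days but 0.11 for 5 to 3 days, below the 0.25 of all genes. Oxidative phosphorylation genes had medians of -0.65 and -0.01, and 16 of 34 had a dip over 0, read against the same 29.6%. Neither list was recounted with TMM scaling or with the length trend removed. TMM scaling moved the median ratio of 5 to 3 days over all genes from 0.25 to 0.03. How far the counts of dips on these lists rest on the scaling was not tested.

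Genes of RNA processing and translation were 12 of the 100, a group formed after the genes were seen. By the deposited gene ontology terms, translation was listed for 3 of the 100 and 3.05% of all genes, rRNA processing for 0 and 0.0681%, and a ribosomal component for 3 and 1.21%, so no excess is read from the group. Rpp40, a protein subunit of RNase P, which trims transfer RNA, was at 2.17, 0.845 and 2.33 RPKM from 92, 35 and 99 reads. Its ratios were 1.26 (0.78 to 1.96) and 1.36 (0.90 to 2.07), the third largest dip. Mettl1, which methylates guanosine in transfer RNA, was at 17.6, 8.26 and 15.8 RPKM, and Gemin6, of the complex that assembles spliceosomal particles, at 5.46, 3.04 and 5.76 RPKM. Bzw2, a regulator of translation, was at 39.4, 25.2 and 39.2 RPKM from 1156, 722 and 1149 reads. The count intervals of the 5 to 0 day ratio spanned 0 for all 4.

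Other members of this group were Mrto4 and Rps19bp1, which act in the nucleolus on ribosomes, Polr2d, a subunit of RNA polymerase II, Eif2b4, a subunit of the eIF2B exchange factor, and Gpatch4. Levels of these 5 genes at 3 days lay between 10.2 and 20.1 RPKM. Rps4y2, which RefSeq lists as the transcribed pseudogene Rps4l, had a dip of 1.01, with 135, 54 and 113 reads. Rpl34-ps1, named as a copy of a ribosomal protein gene but listed as protein-coding in RefSeq, had 70, 33 and 56 reads. Reads of such copies may come from the parent genes. Snord22, a small nucleolar RNA that lies within Snhg1 and has a length of 126 bases, had 62, 35 and 64 reads in these poly(A)-enriched libraries.

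Mitochondrial proteins were 11 of the 100, a group also formed after the genes were seen. By the deposited gene ontology terms, a mitochondrial component was listed for 4 of the 100 and 3.76% of all genes, so no excess is read from the group. Mrpl12, of the mitochondrial ribosome, was the most abundant, at 61.1, 37.5 and 57.8 RPKM. Bola1, which acts in iron-sulphur biology, was at 15.3, 5.61 and 10.5 RPKM, and its ratio of 0 to 3 days was 1.43 (1.02 to 1.89). AI462493, now named Uqcc3, an assembly factor of complex III, was at 22.7, 11.0 and 18.9 RPKM. Bola1 and AI462493 had intervals of the 5 to 0 day ratio below 0. Clpp, a mitochondrial protease, was at 18.4, 11.9 and 19.3 RPKM, and the other members were Nme4, Apoo, Ccdc58, Chchd6, Top1mt, Slc25a26 and Ptpmt1.

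Genes of DNA replication, chromosomes and repair were 6 of the 100, a group also formed after the genes were seen. Its share among all genes was not computed, so no excess is read from it. Tipin, which protects replication forks, was at 58.0, 38.2 and 57.5 RPKM, and Pole3, a subunit of DNA polymerase epsilon, at 32.4, 20.8 and 36.7 RPKM. Cenpk, of the centromere, was at 16.7, 8.85 and 14.8 RPKM. The others were Syce2 and Mnd1, known from meiosis, and the repair gene Ercc8. On the cell cycle list, 30 of 30 genes were higher at 5 than at 3 days, where 74.6% of all genes were, and 11 of 30 had a dip over 0, a share near the 29.6% of all genes.

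Metabolic enzymes and transporters were 9 of the 100, again grouped after the genes were seen. No share among all genes was computed for them, and no excess is read. Slc15a2, a transporter of small peptides, was at 12.7, 6.97 and 16.5 RPKM from 792, 423 and 1023 reads, with ratios of 0.86 (0.70 to 1.04) and 1.23 (1.07 to 1.41). Its log2 ratio of 5 to 0 days was 0.37, and that of Prps1, which makes the precursor of nucleotides, 0.15. With TMM scaling these were 0.06 and -0.16, so that the direction for Prps1 turned with the scaling. Pygm, the glycogen phosphorylase of muscle, was at 3.00, 1.38 and 2.18 RPKM, and the others were Ddc, B4galt4, Acy1, Slc52a3, Galk1 and Galnt12.

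Long noncoding RNAs were 7 of the 100 and 131 of the 10285 genes. Mir17hg, the host of the miR-17 cluster, was at 8.10, 5.02 and 8.85 RPKM. 9430076G02Rik, which RefSeq names Redrum, was at 5.75, 2.87 and 5.38 RPKM, and 2810008D09Rik, named Snhg20, at 12.5, 6.74 and 14.1 RPKM. 2610035D17Rik had the least complete return of the 100, at 6.34, 1.93 and 3.17 RPKM, with a log2 ratio of 5 to 0 days of -0.98. The others were Gm16845, A030009H04Rik and 2810442I21Rik.

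The 31 genes left had no common role. Stmn1, which encodes stathmin, a microtubule regulator of dividing cells, was the most abundant of the 100, at 547, 344 and 561 RPKM from 9086, 5573 and 9320 reads. Its ratios were 0.67 (0.62 to 0.72) and 0.71 (0.66 to 0.76). Erdr1 was at 193, 98.1 and 149 RPKM, and 2700094K13Rik, the selenoprotein gene Selenoh, at 40.2, 26.3 and 40.2 RPKM. The log2 ratio of 5 to 0 days was 0.04 for Stmn1, or -0.27 with TMM scaling, and -0.38 for Erdr1, or -0.69 with TMM scaling.

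Ccdc135, now Drc7, of the ciliary dynein regulatory complex, was at 3.91, 1.80 and 4.03 RPKM, with ratios of 1.08 (0.73 to 1.53) and 1.12 (0.77 to 1.57). Psmg3, a chaperone of proteasome assembly, was just short of a dip of 1, at 14.6, 6.30 and 12.6 RPKM, a dip of 0.99. Klc1, a kinesin light chain, was at 14.5, 8.25 and 20.95 RPKM, and the synaptic adhesion gene Nlgn2 at 2.28, 1.47 and 3.34 RPKM. Both were higher at 5 than at 0 days, by log2 ratios of 0.53, which were 0.22 for Klc1 and 0.24 for Nlgn2 with TMM scaling. Others with large dips, from 0.90 to 0.95, were Tmem238, Zfp428, Fgfrl1, Zbtb8a and Cela1, with 27 to 51 reads each at 3 days. The rest were 5730409E04Rik, Isoc2b, Sapcd1, Ydjc, Nefh, Kbtbd3, Fam26f, Rab38, Samd3, Wdr25, Nrarp, Gm14378, Rhebl1, Metrn, Arl2, Stard10, Gnb1l, Fam118a and Klf16, with dips from 0.59 to 0.89.

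**Figure D4:**
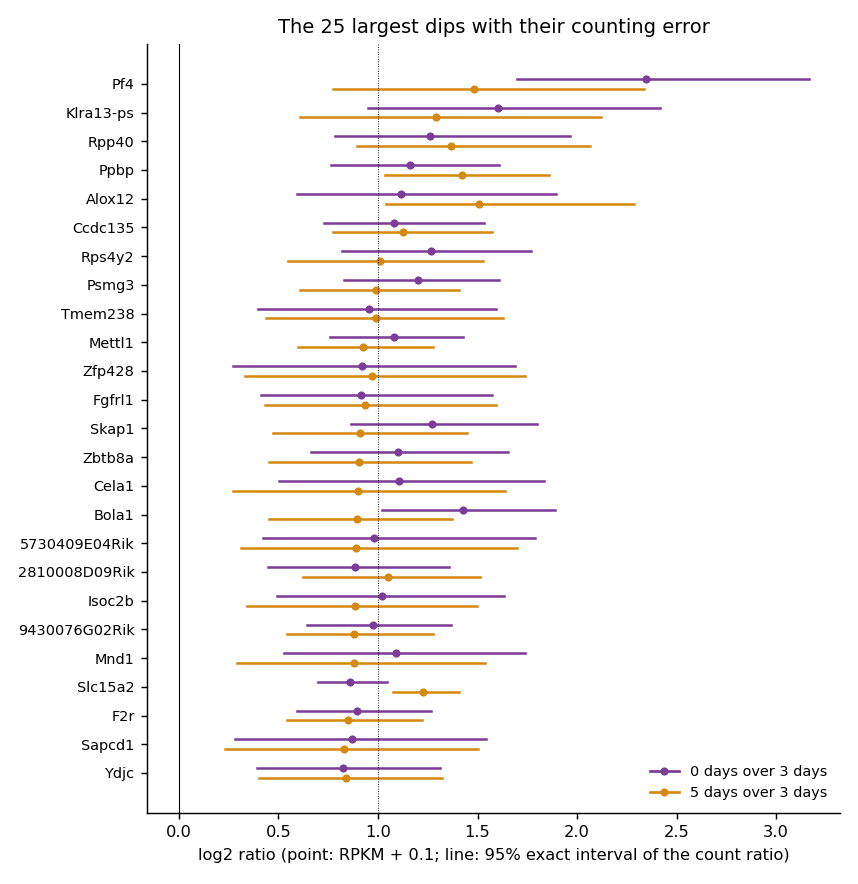
Log2 ratio of 0 to 3 days (purple) and of 5 to 3 days (orange) for the 25 genes with the largest dips, with points for RPKM + 0.1 and lines for the 95% exact interval of the count ratio. Every line lies right of 0, and those wholly past the dotted line at 1 are the orange lines of Ppbp, Alox12 and Slc15a2 and the purple lines of Pf4 and Bola1.

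Several of these genes rest on few reads. At 0 days 37 of the 100 had fewer than 100 reads, where 8.62% of all genes did, and the median was 139.5 reads against 532. By bins of reads at 0 days, 37 of 887 genes with 50 to 99 reads were chosen and 6 of 3105 genes with 1000 or more. With the lower end of each count interval in place of the ratio, 0 genes had a dip over 1. Genes of another kind can also share reads, since 43 of the 100 overlap another RefSeq gene, such as Mettl1 with Eef1akmt3, Ctsw with Fibp and Cd247 with Pou2f1. The share of overlapping genes among all genes was not computed, so the 43 is not read as a trait of the 100. Whether strand was used in counting is not given in the sources used here.

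The 100 genes were short. Their median length was 1484.5 bases, against 2846 for all genes, and 53, 20, 20, 6 and 1 of them lay in 5 equal bins of all genes from shortest to longest. Over all genes the ratio of 3 to 0 days moved with length, from a median of -0.34 in the shortest bin to 0.48 in the longest. The ratio of 5 to 3 days moved less, from 0.17 to 0.31. With the trend on length removed from both ratios, 99 of the 100 still had a dip over 0, the exception being Snord22, and 54 were still among the 100 largest. The dip shrank by more than 1.5 times for 55 of the 100, to 0.06 for Pole3, 0.08 for 2700094K13Rik, 0.21 for Nkg7 and 0.32 for Stmn1. Pf4, Alox12, Klra13-ps and Rpp40 kept dips over 1. Of the 100, 89 were protein-coding, 7 long noncoding RNAs and 3 transcribed pseudogenes (Klra13-ps, Rps4y2 and Erdr1) in RefSeq, and Snord22 was the remaining gene. Of the 10285 genes, 10014 were protein-coding, 131 long noncoding RNAs and 40 pseudogenes of any kind.

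**Figure D5:**
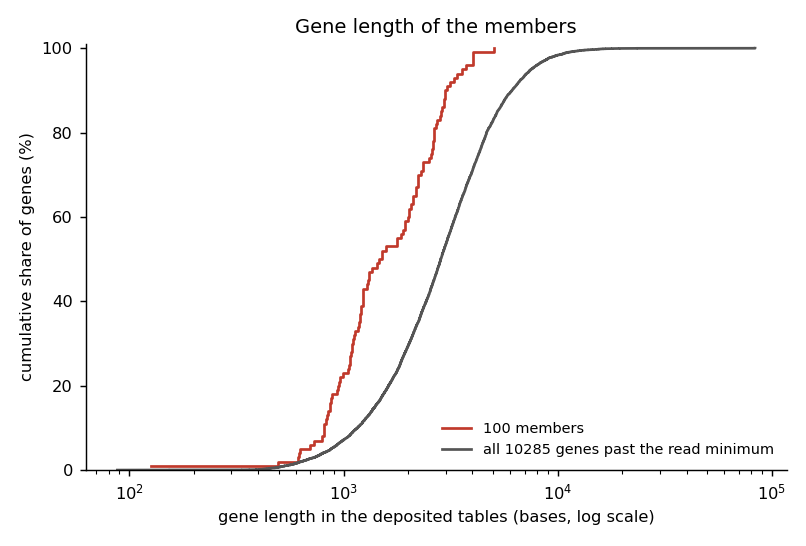
Cumulative share of genes in percent (y axis) by gene length in bases on a log scale (x axis) for the 100 chosen genes (red) and all 10285 genes past the read minimum (grey). The red curve lies to the left, with medians of 1484.5 and 2846 bases.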

How the data were processed

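Poly(A)-enriched RNA of BM cells was sequenced in 3 libraries, 1 per time point, so groups were compared as single libraries and no test of conditions was made. For each gene the authors deposited whole read counts, the RPKM, which equalled the counts scaled by gene length and by the reads on all listed genes within 0.1% except in 18 rows at 0 days and 14 at 3 days with at most 36 reads, and their own log2 ratios, P values and false discovery rates, which were not used. The methods name Cufflinks, the submitters' processing notes name the build mm8, and the aligner is not given in the sources used here. RefSeq symbols, neighbours and promoters are of GRCm38.p6 and were matched by gene ID.

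The 3 tables were joined by gene ID, RPKM of genes without reads was set to 0, and 0.1 was added before log2 ratios were taken, which understates the change of low genes. Exact 95% intervals of count ratios cover counting error only, since each time point is 1 library. PCR copies carried no molecular identifiers and could not be told from separate molecules, so the intervals may understate that error too. Genes with 3 reads or fewer would have been given no fold, and none of the 100 was. The members, the 40 lists and the motifs were chosen with earlier results of these data known, and roles of the members were assigned after the members were seen. Named by rule were the 15 largest dips, the 10 most abundant members, up to 4 members of each list and the 3 genes on each side of the edge. Other genes were named after their values were seen. The values of 1 member are not reported here. The alternatives were 2 other pseudocounts, edgeR 4.0.16 TMM and DESeq2 1.42.0 size factors, scaling without the 100 most abundant genes, summed rows of a symbol, minimums of 20 and 200 reads, removal of the trend on gene length (lowess, span 0.3, statsmodels 0.14.6) and the lower interval end. Python 3.11.15 and scipy 1.17.1 were used, and the steps were tested on simulated data.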

Additional observations from a re-analysis of the deposited data

How the results depend on the processing

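All 100 genes kept a dip over 0 with TMM, median-of-ratios or top-gene scaling and with summed rows. A changed pseudocount or read minimum cannot turn the sign of a dip, so those settings are no check of it. The genes were chosen for this dip, so nothing is read from its staying over 0. With TMM the dip shrank by more than 1.5 times for 28 of the 100, such as Nkg7 (0.61 to 0.38) and Cd34 (0.58 to 0.36). With the length trend removed, 99 kept a dip over 0, and the dip of Snord22 turned to -0.33. The number of genes with a dip over 1, which was 7, became 2 with a pseudocount of 1 RPKM, 15 at a minimum of 20 reads, 0 at 200 reads, 4 with the length trend removed and 0 at the lower end of the interval, and was 5 to 7 otherwise. Of the 100 genes, 62 stayed among the 100 largest with TMM, 63 with median-of-ratios scaling, 55 at a minimum of 20 reads, 36 at 200 reads (where only 36 were measured), 54 with the length trend removed and 54 at the lower end of the interval. List members among the 100 came to 2 T cell, 2 NK, 3 platelet and 0 erythroid, progenitor and endothelial genes both with TMM and with the length trend removed, which also left 0 small noncoding RNAs and gave re-chosen genes a median length of 2682 bases. For list counts and the counts under TMM the cause was not tested. The 9 genes that stayed under all 10 alternatives were Mettl1, Slc15a2, F2r, Klc1, AI462493, Ctsw, Cenpk, Muc13 and Mir17hg. Only the 36 genes measured at a minimum of 200 reads could stay under all 10. A further 20 genes stayed under all but 1 alternative, among them the 7 with a dip over 1. The alternatives with scaling shifted the median log2 ratio of 5 to 0 days of the 100 genes from -0.02 to between -0.33 and -0.23. No paired analysis was possible because each time point is 1 library. Depth limits the choice most for the 37 genes with fewer than 100 reads at 0 days.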

Other observations

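The read minimum of 50 left out genes with the same shape. Of 1229 further genes with at least 20 reads at 0 and 5 days, 8 had a dip over 1, or 0.651%, where 0.0681% of the 10285 genes did. The 8 were Odf3b, Dnd1, Avpi1, Rwdd3, Gm7120, Gm9199, AU023871 and Fzd6. The intervals of both ratios were above 0 for all 8, but the same counts chose these genes, so nothing is read from that. Odf3b had 25, 7 and 23 reads at 0, 3 and 5 days and a dip of 1.48, and Dnd1 had 38, 11 and 34 reads. Fzd6, a Wnt receptor gene, had 43, 17 and 47 reads. Platelet markers below the minimum of 50 were mixed. Treml1 had 15, 5 and 20 reads, Gp5 42, 29 and 49, and Tubb1 28, 22 and 46. Selp had 65, 95 and 28 reads, Clec1b 82, 61 and 37, F2rl2 37, 41 and 36, and Gp6 0, 4 and 4.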
